A study of Mus musculus with 6 samples.

Results

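The 81 genes described here encode integrins, laminins and collagens. They were all genes of the count table whose symbol is Itga followed by digits or lower-case letters, Itgb1 to Itgb8, Lama, Lamb or Lamc followed by a digit from 1 to 5, or Col followed by a number, the letter a and a number. They make up 26 integrin, 11 laminin and 44 collagen genes among the 55416 genes of the table. The rule uses gene symbols only and no measured value, though the members were chosen with earlier results of these data known.

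Integrins are receptors in the cell membrane, each built of an alpha and a beta subunit, that bind the extracellular matrix outside the cell and the actin cytoskeleton inside it. Laminins are trimers of an alpha, a beta and a gamma chain. They polymerise into basement membranes together with a network of collagen IV, and other collagens form fibrils or sit on them. In the embryonic forebrain, basement membranes lie under the pia and around blood vessels, and radial glial progenitors hold on to them with their end-feet through integrins.

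RNA was sequenced from the ganglionic eminences, the swellings of the ventral forebrain that give rise to striatal neurons and cortical interneurons, of mouse embryos at stage E13.5. The 3 libraries of one group came from embryos labelled Dlx1/Dlx2 double knockout, which lack 2 neighbouring homeodomain transcription factor genes, and the 3 libraries of the other from wild-type littermates. The labels give no strain, allele or sex, and do not say which libraries share a litter or how many embryos went into one. The comparison asked which genes differ in level in this tissue without Dlx1 and Dlx2.

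Total counts per library were between 56618090 and 70114173. Levels are given as CPM, read counts scaled to library size with the trimmed mean of M values, and differences were tested across all 23628 genes that passed a filter on low counts with edgeR's quasi-likelihood test. A gene was called different at a Benjamini-Hochberg adjusted p under 0.05, adjusted over all those genes. Dlx2 lay at 282 to 313 CPM in wild-type and 7.5 to 11 CPM in double knockout libraries, so every library matched its label. Dlx1, whose exons Dlx1as overlaps, lay at 434 to 446 and 74.9 to 94 CPM. Gsx2 and Nkx2-1, transcription factor genes of this region, were present in all 6 libraries, at no less than 21.9 and 118 CPM. Wild-type replicate 1 stood apart in genes of the choroid plexus, with Ttr at 26.3 CPM against 0 to 0.156 CPM in the other 5 libraries. Over all tested genes, double knockout replicate 3 stood apart within its group. The chi-square per gene between the counts of 2 libraries was 36.4 and 29.7 for it against replicates 1 and 2. That value was 13.1 between double knockout replicates 1 and 2, and 20.4 to 21.7 between wild-type libraries. Xist was at 1234 to 1552 CPM in 3 libraries, 2 of them wild type, and at 0.119 to 0.827 CPM in the other 3, so the level of Y-linked genes was a covariate in an alternative fit.

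Of the 81 genes, 78 passed the filter on low counts, and 9 of these were higher in the double knockout while none was lower. The share called higher was 11.5%, beside 1.34% of all 23628 genes called higher, 1.34% called lower and 2.68% called in either direction. The 9 were the integrin genes Itga6, Itga7, Itga2 and Itgb8, the laminin gene Lamb2, and the collagen genes Col4a5, Col2a1, Col12a1 and Col28a1. Their fold changes ran from 1.28 for Lamb2 to 2.64 for Col28a1. In bulk tissue, a difference in RNA per cell and a difference in the number of cells of a type cannot be told apart. Without wild-type replicate 1, 4 genes were called (Itga6, Itgb8, Col2a1 and Col12a1). Of the 9, 3 were called without wild-type replicate 2, 2 without wild-type replicate 3, 4 without double knockout replicate 1, 3 without double knockout replicate 2 and 5 without double knockout replicate 3. The fit without double knockout replicate 2 also called Col4a4 (lower), and the fit without double knockout replicate 3 also called Col25a1 and Col26a1 (higher). With the Y-linked covariate 2 were called, and these 2, Itga6 and Itgb8, were the only ones of the 9 called in all 14 alternative fits.

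**Figure D1:**
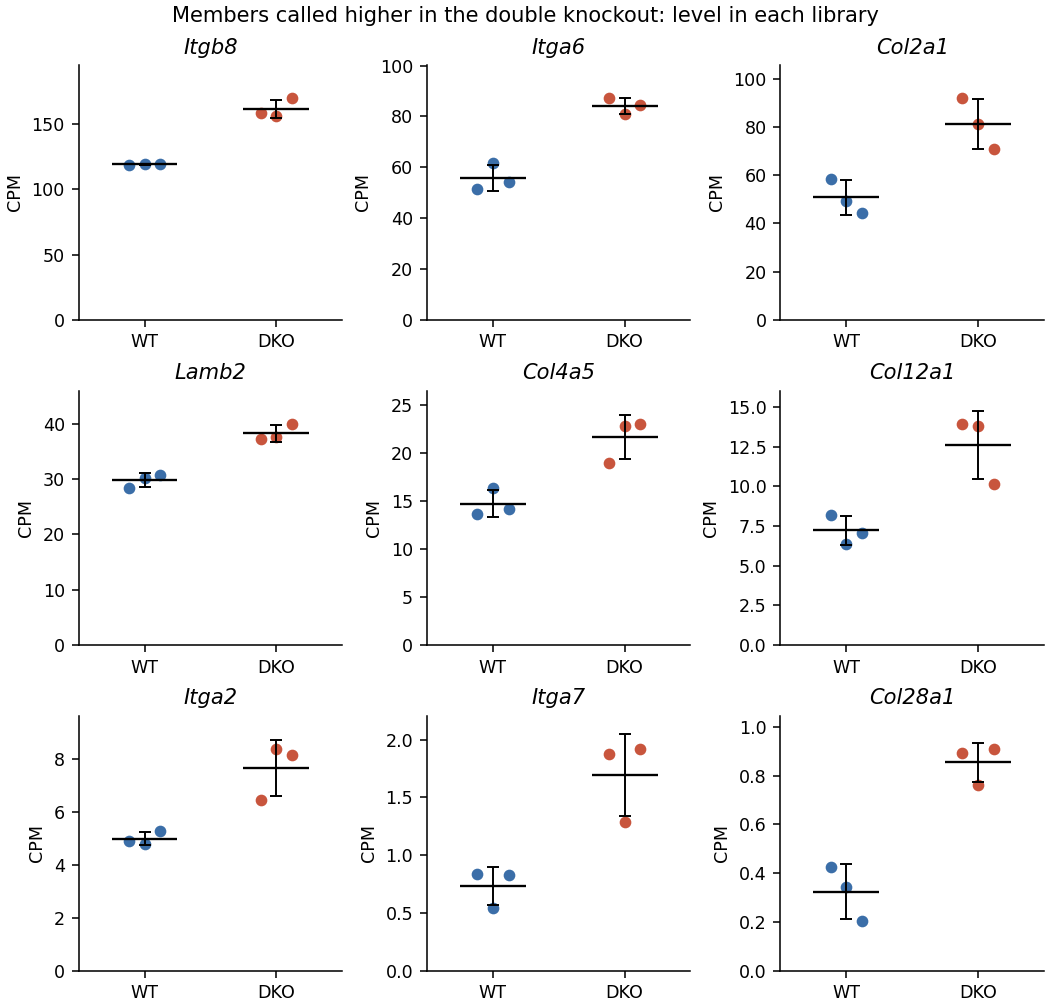
Level of the 9 called genes in each library. Each panel shows CPM on an axis from 0 for the 3 wild-type (WT, blue) and 3 double knockout (DKO, red) libraries, with the mean as a line and the SD as a bar, and in each panel all 3 double knockout points lie above all 3 wild-type points.

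The median log2 fold change of the 78 tested members was 0.12, beside -0.00161 for all tested genes. The difference was positive for 56 of 78, or 71.8%, beside 49.5% of all tested genes. All 3 double knockout libraries lay above all 3 wild-type libraries for 17 members (21.8%), where the same held for 9.3% of all tested genes. They lay below for 5 members (6.41%; Col4a3, Col4a4, Col6a5, Col8a1 and Col19a1), beside 10.2% of all tested genes. At an unadjusted edgeR p under 0.05 there were 18 higher members (23.1%, beside 6.52% of all tested genes) and 2 lower ones, Col4a4 and Col6a5 (2.56%, beside 6.81%). Summed over the 81 genes, the level ran from 1242 to 1261 CPM in wild-type libraries and from 1432 to 1475 CPM in double knockout libraries. Over all tested genes, the share called higher grew with the level in the wild type. Among members with a wild-type mean of at least 10 CPM, 5 of 23 were higher, beside 2.01% of 10490 genes at that level. The counts were 2 of 33 members from 1 to under 10 CPM, beside 1.14% of all genes there, and 2 of 22 members under 1 CPM, beside 0.528%.

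**Figure D2:**
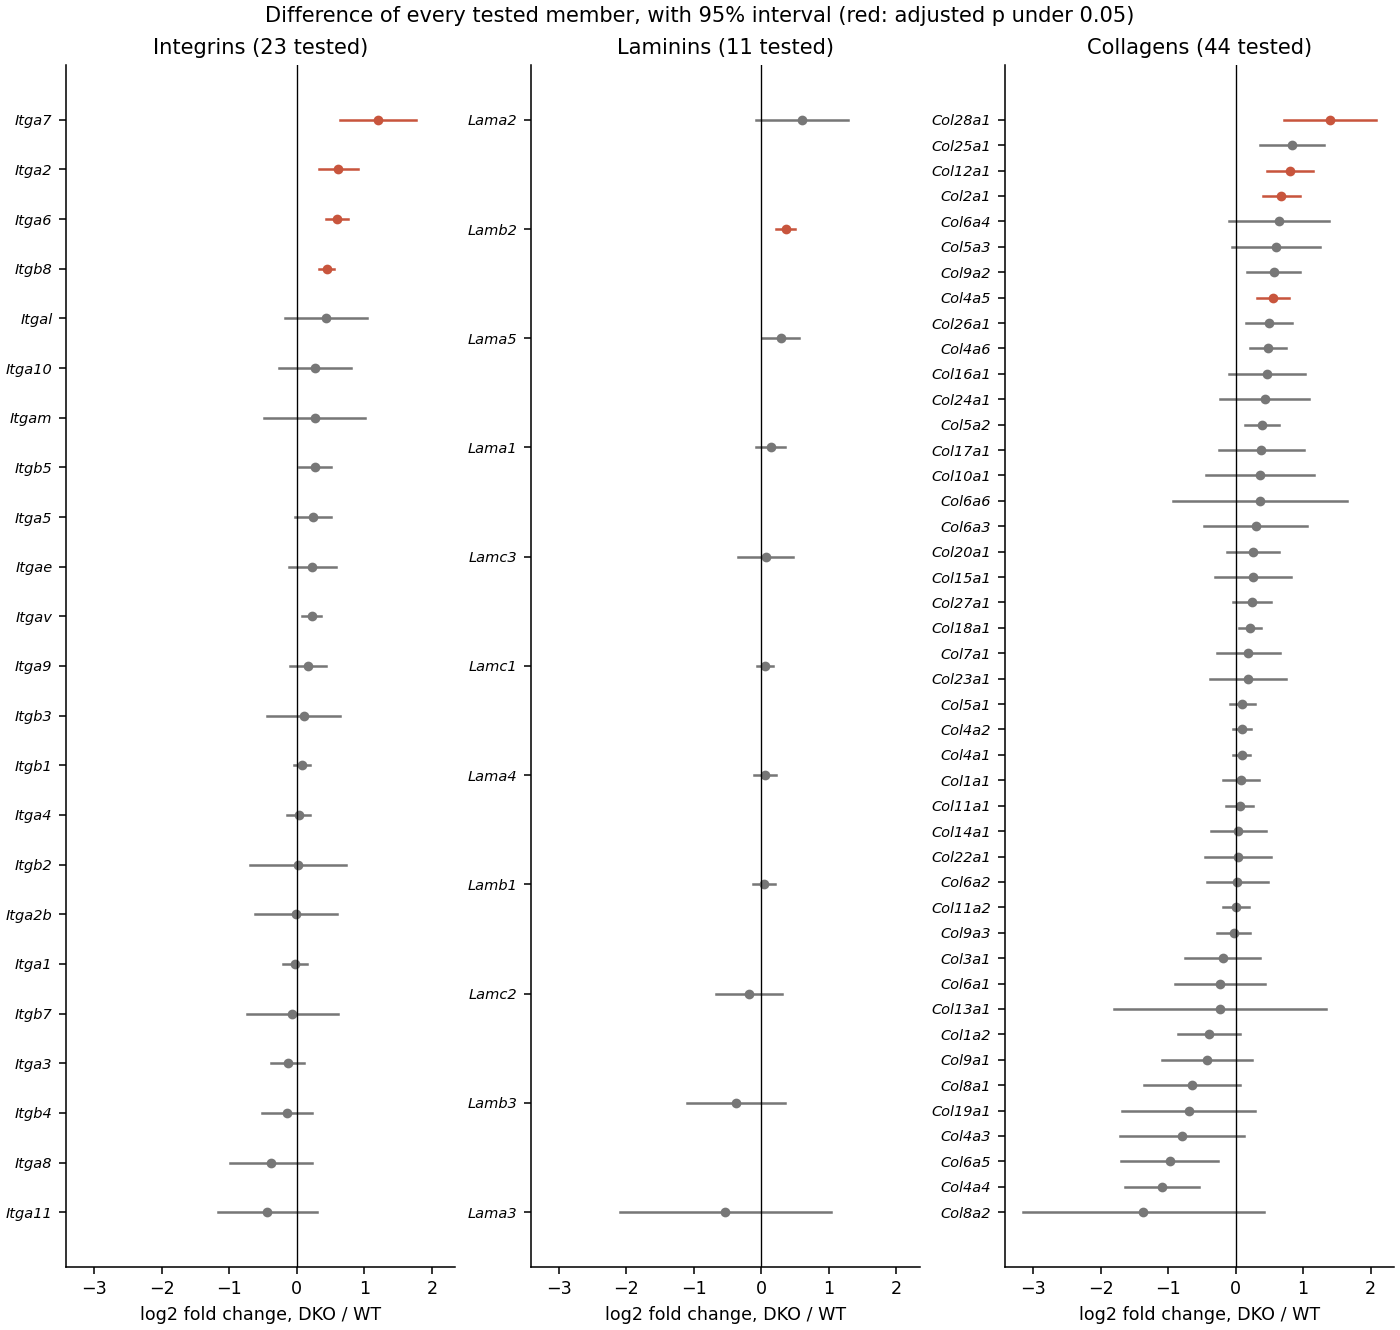
Log2 fold change, double knockout over wild type, of each of the 78 tested members with its 95% interval, by family and ordered by size. Red marks the 9 genes called higher, and the widest intervals are those of Col8a2, Col13a1 and Lama3.

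Levels of different genes were compared per kilobase of exon, with exon lengths from the GENCODE M21 annotation. On this scale Itgb1, the beta subunit shared by most integrins of the nervous system, was the most abundant member in the wild type, at 35.2 ± 1.05 CPM per kilobase (SD, n = 3, as for all such values). The basement membrane collagen genes Col4a1 and Col4a2 followed at 23.3 ± 0.36 and 16 ± 0.853, then Itgb8 at 10.8 ± 0.0492 and the laminin gamma chain gene Lamc1 at 7.46 ± 0.109 CPM per kilobase. Each of these 5 lay above the next in all 3 wild-type libraries. Col18a1, Itga6, Col5a2, Col2a1 and Lamb2 came next, between 6.62 ± 0.447 and 4.9 ± 0.203 CPM per kilobase, and neighbours in that order overlapped between libraries. Of the 10 most abundant members, 4 were called higher (Itgb8, Itga6, Col2a1 and Lamb2). Of all tested genes 1.34% were called higher, and 2.01% of those with a wild-type mean of at least 10 CPM. Exons of another annotated gene overlap 25 of the 81 members, and 1 of the 9 called ones. Reads there could have been counted for the wrong gene or for neither, depending on counting settings that are not given.

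**Figure D3:**
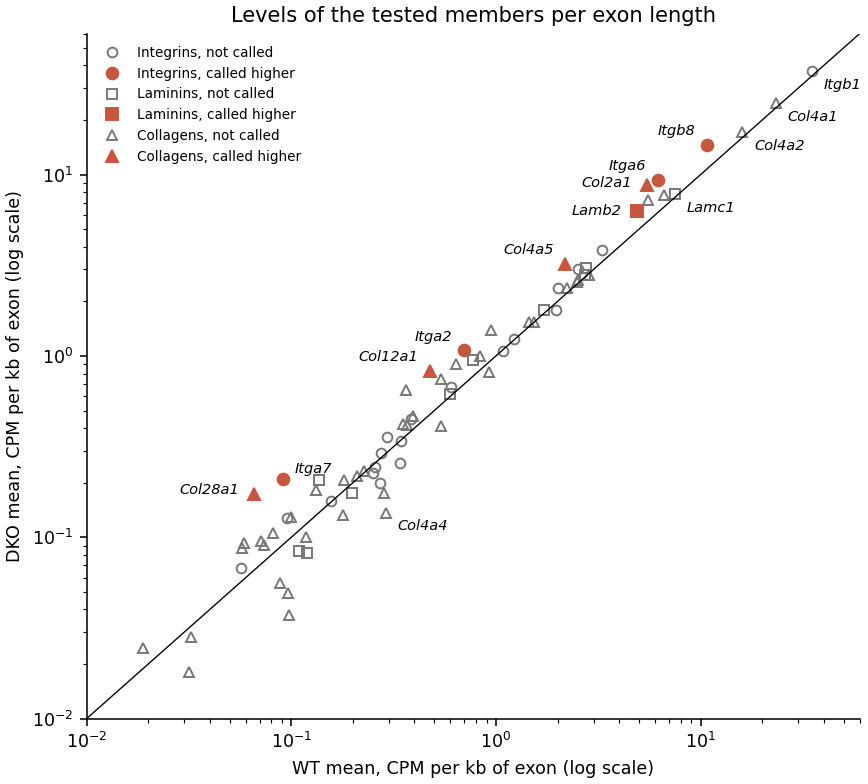
Mean level in the double knockout against the wild type for the 78 tested members, in CPM per kilobase of exon, both axes on a log scale, with the line of equal levels. Filled red symbols are the 9 genes called higher, which range from under 0.1 to over 10 CPM per kilobase in the wild type, and Itgb1, Col4a1, Col4a2 and Lamc1 lie close to the line.

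Of 16 tested integrin alpha genes, 3 were higher (18.8%, beside 1.34% of all tested genes), and 2 of these encode subunits of laminin receptors. Itga6, whose product pairs with the beta1 or beta4 subunit and marks many progenitor cells, was at 51.4, 61.5 and 54.2 CPM in wild-type replicates 1 to 3 and 87.1, 80.8 and 84.5 CPM in double knockout replicates 1 to 3. The libraries of the 2 groups did not overlap, and Itga6 rose 1.51-fold (95% interval 1.35 to 1.69), with a log2 fold change of 0.59 (SE 0.0712, 95% interval 0.43 to 0.76) and an edgeR adjusted p of 0.00328. The highest adjusted p over its 14 alternatives was 0.0244. Itga7, the laminin receptor subunit best known from muscle, was at a low level of 0.836, 0.545 and 0.826 CPM in wild-type replicates 1 to 3 and 1.88, 1.28 and 1.92 CPM in double knockout replicates 1 to 3. Its counts were 49, 35 and 53 in the wild type and 122, 74 and 133 in the double knockout, with a log2 fold change of 1.21 (SE 0.248, 95% interval 0.64 to 1.77) and an edgeR adjusted p of 0.0419. Exons of Mettl7b overlap Itga7 on the opposite strand, so its counts are uncertain if counting ignored strand. Itga7 was not called without wild-type replicate 1, 2 or 3 or double knockout replicate 1 or 3 (edgeR adjusted p 0.0818 to 0.141). Nor was Itga7 called by limma-voom (adjusted p 0.0521) or with the Y-linked covariate (edgeR adjusted p 0.111). The other gene of this class, Itga3, was at 11.2 ± 0.596 CPM (wild type) and 10.2 ± 1.23 CPM (double knockout) and was not called, with a log2 fold change of -0.14 (SE 0.108, 95% interval -0.38 to 0.11).

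Among the genes of the collagen-binding alpha subunits, Itga2 was higher and Itga1, Itga10 and Itga11 were not called. Itga2, whose product is a collagen receptor of platelets and epithelia, was at 4.9, 4.81 and 5.28 CPM in wild-type replicates 1 to 3 and 6.44, 8.38 and 8.15 CPM in double knockout replicates 1 to 3. Its libraries did not overlap between groups, and it rose 1.53-fold (95% interval 1.25 to 1.87), with an edgeR adjusted p of 0.0425. It was not called without wild-type replicate 1, 2 or 3 or double knockout replicate 2 or 3 (edgeR adjusted p 0.0737 to 0.174). Nor was Itga2 called by limma-voom (adjusted p 0.0543) or with the Y-linked covariate (edgeR adjusted p 0.152). Itga1, which binds collagen IV and was the most abundant of the 4 per kilobase, was at 20.2 ± 0.149 CPM (wild type) and 19.8 ± 1.57 CPM (double knockout), with a log2 fold change of -0.03 (SE 0.0788, 95% interval -0.21 to 0.15). Itga10 and Itga11 had log2 fold changes of 0.27 and -0.44 at means under 2 CPM.

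None of the 4 tested genes for alpha subunits that bind the RGD sequence of fibronectin, vitronectin and latent TGF-beta was called. Itgav, the partner of Itgb8, came closest, at 34.5, 37.3 and 34.7 CPM in wild-type replicates 1 to 3 and 42.8, 39.6 and 41.4 CPM in double knockout replicates 1 to 3. The groups did not overlap, but its edgeR adjusted p was 0.135, with a log2 fold change of 0.22 (SE 0.0611, 95% interval 0.08 to 0.36). Itga5, the fibronectin receptor subunit, was at 9.89 ± 0.796 CPM (wild type) and 11.7 ± 1.48 CPM (double knockout) (log2 fold change 0.24). Itga4 and Itga9 had log2 fold changes of 0.02 and 0.16, with 95% intervals of -0.14 to 0.19 and -0.10 to 0.43. Of the 5 leukocyte alpha subunit genes, Itgae and Itgal were the highest per kilobase, at means of 1.76 and 0.629 CPM in the wild type. Neither was called, with log2 fold changes of 0.23 and 0.43, and Itgax and Itgad were under the filter.

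Itgb8 was the only one of 7 tested beta subunit genes to be called (14.3%, beside 2.68% of all tested genes). Its product pairs with the alphaV subunit alone, binds latent TGF-beta and is known in the embryonic brain for the contact of radial glia with vessels. Itgb8 was at 118.7, 119.3 and 119.8 CPM in wild-type replicates 1 to 3 and 159.0, 156.7 and 169.9 CPM in double knockout replicates 1 to 3. The wild-type libraries lay within about 1 CPM of each other and well below the double knockout libraries. Itgb8 rose 1.36-fold (95% interval 1.26 to 1.46), with a log2 fold change of 0.44 (SE 0.0472, 95% interval 0.33 to 0.55) and an edgeR adjusted p of 0.0018, and its adjusted p stayed at or under 0.0165 in its 14 alternatives. Itgb1, at 144 ± 4.28 CPM (wild type) and 151 ± 6.37 CPM (double knockout), had a log2 fold change of 0.07 (SE 0.0496, 95% interval -0.04 to 0.19). The interval of Itgb1 thus ended below the point estimate of Itgb8 and below its lower bound of 0.33. Itgb5, another partner of alphaV, spanned 8.18 to 9.69 CPM in wild-type and 9.81 to 11.5 CPM in double knockout libraries, without overlap but with an edgeR adjusted p of 0.312. Itgb6 had 0 counts in every wild-type library and 2, 2 and 3 in the double knockout libraries, all at or under the floor of 3 counts.

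Of the 11 laminin genes, all tested, Lamb2 alone was called (9.09%, beside 2.68% of all tested genes). It encodes the beta2 chain of basement membrane laminins and was at 28.4, 30.1 and 30.8 CPM in wild-type replicates 1 to 3 and 37.1, 37.6 and 39.96 CPM in double knockout replicates 1 to 3. The libraries did not overlap between groups, and Lamb2 rose 1.28-fold (95% interval 1.16 to 1.42), with a log2 fold change of 0.36 (SE 0.0627, 95% interval 0.22 to 0.50) and an edgeR adjusted p of 0.0208. Lamb2 was not called without wild-type replicate 1, 2 or 3 or double knockout replicate 1 or 2 (edgeR adjusted p 0.0561 to 0.0938). The other beta chain of the neural basement membrane, Lamb1, was at 26.9 ± 1.75 CPM (wild type) and 27.7 ± 1.21 CPM (double knockout), with a log2 fold change of 0.04 (SE 0.0731, 95% interval -0.13 to 0.21). Lamc1, the gamma chain of most laminins, was at 61.7 ± 0.898 CPM (wild type) and 64.3 ± 2.75 CPM (double knockout), with a log2 fold change of 0.06 (SE 0.0508, 95% interval -0.06 to 0.18). The alpha chain genes Lama1 and Lama4, of pial and vascular basement membranes, had log2 fold changes of 0.14 and 0.06, and Lamc3 had 0.06. Lama5 had a log2 fold change of 0.29 at 8.06 to 10.1 CPM in wild-type and 9.78 to 12 CPM in double knockout libraries, with overlapping groups and an edgeR adjusted p of 0.355. Lama3 was high in wild-type replicate 1, at 2.61 CPM against 0.529 and 0.717 CPM in the other wild-type libraries and 0.36 to 1.65 CPM in the double knockout libraries, and its log2 fold change of -0.53 had an SE of 0.683.

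The 6 collagen IV genes lie in 3 pairs with neighbouring start sites on opposite strands. Col4a3 and Col4a4 are read away from each other, as are Col4a5 and Col4a6, while Col4a1 and Col4a2 overlap at their starts. In GENCODE M21 the start sites are 21 bases apart for Col4a1 and Col4a2, 72 bases for Col4a3 and Col4a4 and 1309 bases for Col4a5 and Col4a6. RefSeq's promoter windows (build GRCm38.p6, which is not the GRCm39 build of the counts) run from 250 bases before to 50 bases after the start, and are shown so that the pairs can be set beside the values of their genes. The window of Col4a1 is chr8:11312777-11313076, minus strand, and that of Col4a2 is chr8:11312555-11312854, plus strand. Capitals mark the 78 bases that these 2 windows share, each read on its own strand. The window of Col4a5 is chrX:141475169-141475468, plus strand, and that of Col4a6 is chrX:141474027-141474326, minus strand. These 2 share no bases, and capitals mark the 50 bases from the start site on.
Col4a1: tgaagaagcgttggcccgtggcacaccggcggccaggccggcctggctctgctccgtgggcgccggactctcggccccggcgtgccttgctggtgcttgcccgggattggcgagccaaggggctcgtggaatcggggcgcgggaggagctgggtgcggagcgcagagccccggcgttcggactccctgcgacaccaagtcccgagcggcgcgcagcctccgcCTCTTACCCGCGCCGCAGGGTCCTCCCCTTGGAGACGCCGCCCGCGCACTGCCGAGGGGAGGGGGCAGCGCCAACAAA
Col4a2: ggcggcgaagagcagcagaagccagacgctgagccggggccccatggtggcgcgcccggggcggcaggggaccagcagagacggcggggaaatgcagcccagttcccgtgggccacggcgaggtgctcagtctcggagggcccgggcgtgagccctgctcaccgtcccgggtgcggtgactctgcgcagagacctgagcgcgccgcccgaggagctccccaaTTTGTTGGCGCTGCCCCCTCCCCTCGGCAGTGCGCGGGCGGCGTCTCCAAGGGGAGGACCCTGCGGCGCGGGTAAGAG
Col4a5: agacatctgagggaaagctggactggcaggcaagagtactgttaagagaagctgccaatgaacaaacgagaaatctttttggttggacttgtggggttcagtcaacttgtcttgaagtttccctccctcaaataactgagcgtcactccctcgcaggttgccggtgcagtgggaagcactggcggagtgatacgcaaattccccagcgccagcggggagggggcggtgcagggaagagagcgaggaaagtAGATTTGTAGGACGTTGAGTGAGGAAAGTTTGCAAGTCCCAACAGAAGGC
Col4a6: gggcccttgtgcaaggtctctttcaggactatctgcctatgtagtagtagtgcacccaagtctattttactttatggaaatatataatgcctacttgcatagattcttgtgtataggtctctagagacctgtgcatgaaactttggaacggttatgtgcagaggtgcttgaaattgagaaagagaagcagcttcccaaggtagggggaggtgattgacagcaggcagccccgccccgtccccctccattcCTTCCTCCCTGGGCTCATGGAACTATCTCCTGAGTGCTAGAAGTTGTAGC
The windows of Col4a1 and Col4a2 hold 37 and 33 CpG dinucleotides and are 74% and 73.7% G or C. Those of Col4a5 and Col4a6 hold 11 and 3, at 52.7% and 48.3%.

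Col4a5 was the only one of 6 collagen IV genes to be called (16.7%, beside 2.68% of all tested genes). It encodes a chain of the collagen IV networks with alpha3 and alpha4 or with alpha6, and was at 13.6, 16.3 and 14.1 CPM in wild-type replicates 1 to 3 and 19, 22.8 and 23 CPM in double knockout replicates 1 to 3. The groups did not overlap, and Col4a5 rose 1.47-fold (95% interval 1.24 to 1.74), with a log2 fold change of 0.56 (SE 0.106, 95% interval 0.32 to 0.80) and an edgeR adjusted p of 0.0305. The call was lost without wild-type replicate 1 or 3 or double knockout replicate 2 or 3 (edgeR adjusted p 0.0571 to 0.135). Its neighbour Col4a6 was at 4.08, 4.29 and 4.5 CPM in wild-type replicates 1 to 3 and 5.38, 6.05 and 6.53 CPM in double knockout replicates 1 to 3. Col4a6 also had no overlap, but it was not called, with a log2 fold change of 0.48 (SE 0.117, 95% interval 0.21 to 0.75) and an edgeR adjusted p of 0.0824. The ratio of Col4a5 to Col4a6 per kilobase was 3.97, 4.5 and 3.72 in the wild-type libraries and 4.19, 4.48 and 4.18 in the double knockout libraries, which overlapped.

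Col4a4, a chain of the alpha3, alpha4, alpha5 network, differed in the other direction, at 3.14, 3.47 and 2.62 CPM in wild-type replicates 1 to 3 and 1.32, 1.98 and 1.04 CPM in double knockout replicates 1 to 3. No double knockout library reached the lowest wild-type one, but Col4a4 was not called, with a log2 fold change of -1.09 (SE 0.24, 95% interval -1.64 to -0.55) and an edgeR adjusted p of 0.0552. Col4a4 was called lower by DESeq2, by limma-voom, without a low-count filter, with the replicate block and without double knockout replicate 2, with adjusted p from 7.09e-04 to 0.042. Its neighbour Col4a3 had counts of 21, 17 and 21 in the wild type and 17, 6 and 12 in the double knockout, with a log2 fold change of -0.80 and an edgeR adjusted p of 0.456. The ubiquitous pair Col4a1 and Col4a2, the main chains of vascular and pial basement membranes, stood at 174 ± 2.69 CPM (wild type) and 185 ± 10.7 CPM (double knockout), and at 106 ± 5.64 CPM (wild type) and 113 ± 5.62 CPM (double knockout). Their log2 fold changes were 0.09 and 0.09, with 95% intervals of -0.03 to 0.21 and -0.04 to 0.22. Exons of Col4a1 and Col4a2 overlap each other on opposite strands. If counting ignored strand, some reads of one could have been counted for the other or for neither.

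The levels per kilobase of Itga6, Itgb8, Lamb2 and the collagen IV pairs were also set against the sum of their class, as a description of genes chosen after their values were seen. Itga6 held 30.6, 35 and 31.9% of the summed integrin alpha level in the wild-type libraries and 40.8, 38.8 and 39.8% of it in those of the double knockout, each in replicate order. Itgb8 held 22.2, 21.7 and 21.6% and 26.4, 26.2 and 26.3% of the beta level, with Itgb1 going from 71.2% ± 0.719 to 66.6% ± 0.446. Lamb2 was the more abundant laminin beta gene in both groups and held 61.1, 65.6 and 63.5% and 69.3, 67.5 and 69.1% of their level. Col4a5 and Col4a6 together held 6.07, 7.07 and 6.16% and 8.13, 8.89 and 8.81% of the collagen IV level, and Col4a3 and Col4a4 held 0.792, 0.843 and 0.645% and 0.351, 0.421 and 0.239%. The ratio of Itgb8 to its partner gene Itgav was 3.34, 3.11 and 3.36 in the wild type and 3.6, 3.84 and 3.99 in the double knockout.

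**Figure D4:**
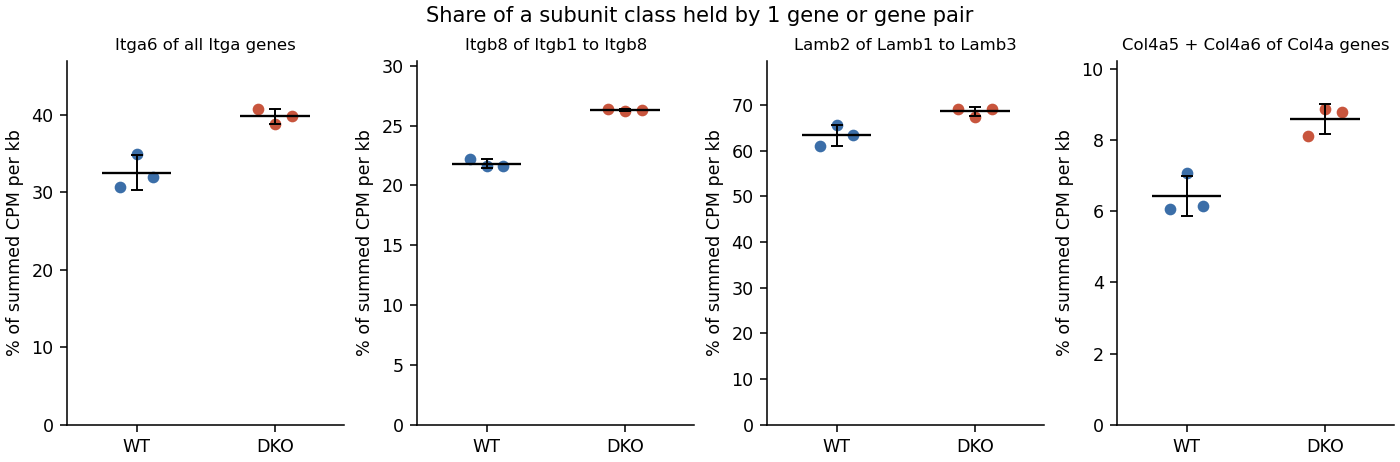
Share of the summed CPM per kilobase of a subunit class that was held by Itga6, Itgb8, Lamb2, or Col4a5 and Col4a6 together. Points are libraries (WT blue, DKO red), lines are means and bars are SD on axes from 0%, and in all 4 panels the double knockout libraries lie above the wild-type libraries.

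Among 11 fibrillar collagen genes, Col2a1 was called (9.09%, beside 2.68% of all tested genes). It encodes the chain of cartilage collagen and is also known from the neuroepithelium of the embryo, and was at 58.6, 49.4 and 44.4 CPM in wild-type replicates 1 to 3 and 91.9, 81.1 and 71.1 CPM in double knockout replicates 1 to 3. The groups did not overlap, and Col2a1 rose 1.6-fold (95% interval 1.33 to 1.93), with a log2 fold change of 0.68 (SE 0.117, 95% interval 0.41 to 0.95) and an edgeR adjusted p of 0.0203. The call was lost without wild-type replicate 2 or 3 or double knockout replicate 1 or 2 (edgeR adjusted p 0.0632 to 0.0941). Acan, another cartilage gene, was under the filter, at group means of 0.134 (wild type) and 0.182 CPM (double knockout). Col5a2 was at 52.6, 46 and 59.9 CPM in wild-type replicates 1 to 3 and 60.6, 72.9 and 74.9 CPM in double knockout replicates 1 to 3, and the groups nearly met without overlapping. It was not called, with a log2 fold change of 0.39 (SE 0.109, 95% interval 0.15 to 0.64) and an edgeR adjusted p of 0.126. The collagen I and III genes of fibroblasts were not called, with log2 fold changes of 0.08 for Col1a1, -0.39 for Col1a2 and -0.19 for Col3a1. For Col3a1 and Col1a2, wild-type replicate 1 was the highest of the 6 libraries, at 13.1 and 9.03 CPM. Col11a1 and Col11a2 had log2 fold changes of 0.06 and 0.01.

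Of the 9 FACIT collagen genes, whose products sit on the surface of fibrils, Col12a1 was called (11.1%, beside 2.68% of all tested genes). It was at 8.23, 6.39 and 7.06 CPM in wild-type replicates 1 to 3 and 13.9, 13.8 and 10.1 CPM in double knockout replicates 1 to 3, without overlap. Col12a1 rose 1.75-fold (95% interval 1.38 to 2.21), with a log2 fold change of 0.80 (SE 0.149, 95% interval 0.46 to 1.14) and an edgeR adjusted p of 0.0272. The call was lost without wild-type replicate 2 or 3 or double knockout replicate 1 or 2 (edgeR adjusted p 0.101 to 0.111). Col9a3 and Col22a1 were the most abundant of this class per kilobase and were not called, with log2 fold changes of -0.03 and 0.03. Col9a2 had no overlap between groups, with a log2 fold change of 0.56 (SE 0.172, 95% interval 0.17 to 0.96) and an edgeR adjusted p of 0.172. Col22a1 was lowest in double knockout replicate 3, at 15.2 CPM against 19.7 to 28 CPM in the other 5 libraries. The same library stood apart for Col19a1, at 0.389 CPM against 1.45 to 2.0 CPM.

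Among the remaining collagens, Col28a1, whose product is known from peripheral glia, was called at the edge of the threshold. Its counts were 25, 22 and 13 in the wild type and 58, 44 and 63 in the double knockout, or 0.427, 0.342 and 0.203 and 0.894, 0.763 and 0.908 CPM. It rose 2.64-fold (95% interval 1.65 to 4.25), with an edgeR adjusted p of 0.0499. The call was lost when any 1 library was left out, with edgeR adjusted p from 0.0745 (without wild-type replicate 1) to 0.151 (without double knockout replicate 1), and with the replicate block (edgeR adjusted p 0.0786). Col26a1 had no overlap between groups, at 4.84 to 5.65 and 5.84 to 8.37 CPM, but an edgeR adjusted p of 0.166 (log2 fold change 0.50). The transmembrane collagen gene Col25a1 was at 5.6, 4.09 and 4.38 CPM in wild-type replicates 1 to 3 and 10.1, 9.07 and 5.94 CPM in double knockout replicates 1 to 3, without overlap, with a log2 fold change of 0.84 (SE 0.207, 95% interval 0.37 to 1.31) and an edgeR adjusted p of 0.0857. Col25a1 passed the threshold in 4 of 14 alternatives, with an edgeR adjusted p of 0.00748 without double knockout replicate 3 and 0.0363 with the replicate block. The basement membrane collagens Col18a1 and Col15a1 had log2 fold changes of 0.21 and 0.26. None of the 6 collagen VI genes was called, and Col6a1 and Col6a2, the most abundant per kilobase, had log2 fold changes of -0.23 and 0.02. Col6a5 lay below without overlap, at 0.592 to 1.09 against 0.346 to 0.57 CPM (log2 fold change -0.97, edgeR adjusted p 0.20). Col8a1, Col10a1, Col7a1 and Col23a1 had log2 fold changes of -0.64, 0.37, 0.19 and 0.18, none of them called. Col8a2 was at 0.99 CPM in wild-type replicate 1 and at 0.101 to 0.277 CPM in the other 5 libraries.

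RefSeq windows were found for 58 of the 81 members, with 64 windows in all. The letters TAATTA, a sequence that homeodomain proteins bind and that reads the same on both strands, were found in 2 of those 64 windows (Col10a1 and Col11a2), or 3.12%. They were found in 5.29% of all 32851 windows of the same length. No match was found in the 5 windows of called members (Itga2, Itgb8, Lamb2, Col4a5 and Col28a1), which says only that these letters are not in these 300 bases.

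Other genes of matrix and adhesion were taken from 4 lists of 100 genes in all, of which 97 were tested. The lists were chosen by function, with earlier results of these data known. There 8 were higher (8.25%, beside 1.34% of all tested genes) and 2 lower, where 1.34% of all tested genes were called lower. In either direction 10.3% were called, beside 2.68% of all tested genes. The median log2 fold change was 0.0817 beside -0.00161 for all tested genes. Among 27 tested matrix partners 4 rose and 1 fell (18.5% called, beside 2.68% of all tested genes). The largest increase was that of Bcan, which encodes the neural proteoglycan brevican, from 6.27 ± 0.775 to 21.2 ± 2.81 CPM (log2 fold change 1.76, SE 0.13, edgeR adjusted p 2.55e-04). Bcan and Npnt were called in all 14 alternatives. Npnt, which encodes nephronectin, a ligand of the alpha8 beta1 integrin, rose from 5.23 ± 0.572 to 10.3 ± 1.19 CPM (log2 fold change 0.98), while Itga8 was at 2.49 ± 0.877 CPM (wild type) and 1.9 ± 0.263 CPM (double knockout) and not called. Fras1 and Frem2, which encode proteins of one basement membrane complex, had log2 fold changes of 0.47 and 0.39 with edgeR adjusted p of 0.0414 and 0.0442. Fras1 was not called without wild-type replicate 1, 2 or 3 or double knockout replicate 2 or 3 (edgeR adjusted p 0.0619 to 0.17), nor by limma-voom (adjusted p 0.0503). Frem2 was not called without wild-type replicate 1, 2 or 3 or double knockout replicate 1 or 2 (edgeR adjusted p 0.0721 to 0.157) or with the replicate block (edgeR adjusted p 0.0572). With the Y-linked covariate neither was called (edgeR adjusted p 0.129 for Fras1 and 0.12 for Frem2). Thbs1, which encodes thrombospondin 1, fell from 36.9 ± 3.84 to 24.2 ± 2.16 CPM (log2 fold change -0.61, edgeR adjusted p 0.0131), and was not called without double knockout replicate 1 (edgeR adjusted p 0.0504). The laminin-binding partners Nid1 and Agrn, chosen after their values were seen, were not called, with log2 fold changes of 0.12 and 0.07.

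Of 30 genes for the making and remodelling of collagen, 1 rose and 1 fell (6.67% called, beside 2.68% of all tested genes). Plod1, a lysyl hydroxylase gene, rose from 11.6 ± 1.2 to 17.2 ± 1.53 CPM (edgeR adjusted p 0.0275), and Mmp2, a gelatinase gene, fell from 4.89 ± 0.458 to 2.87 ± 0.394 CPM (edgeR adjusted p 0.0302). Plod1 was not called without wild-type replicate 1 or 2 or double knockout replicate 2 (edgeR adjusted p 0.0942 to 0.108), and Mmp2 was not called without wild-type replicate 1, 2 or 3 or double knockout replicate 1 or 2 (edgeR adjusted p 0.0607 to 0.133). Among 28 tested integrin adaptor and signalling genes 2 rose (7.14%, beside 1.34% of all tested genes called higher). These were the tensin genes Tns1 and Tns3, with log2 fold changes of 0.60 and 0.35 and edgeR adjusted p of 0.0143 and 0.037. Tns1 was not called without wild-type replicate 1 or 2 or double knockout replicate 1 (edgeR adjusted p 0.0609 to 0.0685), and Tns3 was not called without wild-type replicate 2 or 3 or double knockout replicate 1 or 2 (edgeR adjusted p 0.0686 to 0.139). The summed level of that list ran from 1289.6 to 1319 CPM in wild-type and from 1321 to 1324 CPM in double knockout libraries. Of 12 receptor genes for matrix other than integrins, 1 was called, Ddr1 (8.33%, beside 2.68% of all tested genes). Ddr1, a collagen-binding receptor kinase gene, rose from 163 ± 6.02 to 211 ± 19.9 CPM (log2 fold change 0.37, edgeR adjusted p 0.0311). It was not called without wild-type replicate 1, 2 or 3 or double knockout replicate 2 (edgeR adjusted p 0.0654 to 0.153). Over the 4 lists, 4 genes were called without wild-type replicate 1 and 3 without wild-type replicate 2. There were 5 without wild-type replicate 3 or double knockout replicate 1 or 2. With the Y-linked covariate 4 were called (Bcan, Npnt, Thbs1 and Tns1).

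Markers of the other cells in the dissected tissue were set beside these genes. Of all tested genes, 2.68% were called in either direction. None of 10 endothelial markers was called, and their summed level overlapped between wild-type (139 to 159 CPM) and double knockout libraries (147 to 171 CPM). The pericyte list summed to 187 to 206 and 221 to 264 CPM, without overlap. It had 1 of 9 called, Notch3, which is also expressed by radial glia, and the other 8 summed to 99.3 to 116 and 106 to 123 CPM, with overlap. None of 10 tested meningeal fibroblast markers was called. The full list summed to 22.6 to 23.8 and 24.9 to 26.4 CPM, and without Prrx1 to 10.03 to 12 and 9.82 to 10.9 CPM, with overlap, with its markers Aldh1a2 and Slc6a13 under the filter. Leaving out Notch3 and Prrx1 was decided after their values were seen. None of 10 microglial markers was called (sums of 38.8 to 49.1 and 37.6 to 51.7 CPM), and none of 9 blood markers (sums of 108 to 136 and 98.1 to 156 CPM), both with overlap. Of 6 choroid plexus markers 4 were tested and none was called, and they summed to 31.5 CPM in wild-type replicate 1 and at most 2.08 CPM in the other 5 libraries.

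Markers of neural cells also differed between the groups. Over all tested genes, 1.34% were called higher and 1.34% lower. All 5 oligodendrocyte precursor markers rose, with sums of 67 to 68.1 CPM in wild-type and 131 to 173 CPM in double knockout libraries. Of these, Pdgfra, Sox10, Gpr17 and Olig1 had log2 fold changes of 1.89, 2.20, 1.28 and 1.13. Of 9 radial glia markers 2 rose, Ednrb and Hes5, with log2 fold changes of 0.88 and 0.68, and the list summed to 1737 to 1917 and 2136 to 2358 CPM, without overlap. Of 8 neuronal markers 2 fell, Snap25 and Elavl3, and the list summed to 6012 to 6515 and 4895 to 5709 CPM, without overlap. Of the ganglionic eminence genes, Gad1, Gad2 and Lhx6 were lower and Gsx2 and Nkx2-1 were higher. The part of these shifts in the differences of Itga6, Itgb8, Lamb2, Col4a5, Col2a1 and the other called genes was not tested.

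**Figure D5:**
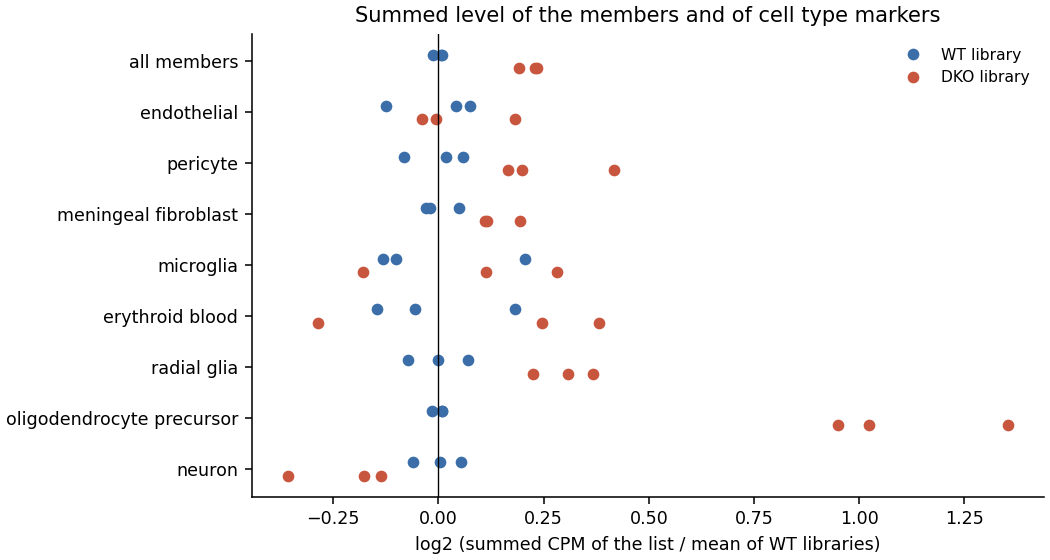
Summed CPM of the 81 members and of 8 marker lists in each library, as the log2 ratio to the mean of the wild-type libraries (WT blue, DKO red). The members lie at higher values in all 3 double knockout libraries, as do the pericyte, meningeal fibroblast, radial glia and oligodendrocyte precursor lists, while the endothelial, microglial and blood lists overlap between groups and the neuronal list lies lower.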

How the data were processed

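The authors deposited a table of raw read counts per gene with 1 column per library. Per the submitters' processing notes, counting used featureCounts on GRCm39. The aligner, annotation release and strand setting are not given in the sources used here. Per the labels' protocols, total RNA was depleted of ribosomal RNA and made into stranded libraries. Sample titles gave the groups. The low-count filter was filterByExpr of edgeR 4.0.16 (minimum count 10, minimum total 15), with TMM scaling. Genes were tested with the quasi-likelihood test (prior count 0.125, R 4.3.3). The standard error is the coefficient over the square root of F, and intervals use the t distribution. A count of 3 equals 0.0432 to 0.052 CPM, a floor for counting error only. Alternatives were other scalings, DESeq2, limma-voom, other low-count filters, a replicate block, a Y-linked covariate and leaving out each library. Exon lengths and overlaps were matched by identifier to GENCODE M21 (GRCm38), which held all 81 members. The labels do not tie libraries to litters or embryos, so p-values measure the spread between libraries, which may be technical in part. Xist and Y-linked levels differed within each group, so in neither group did all libraries come from the same embryo.

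The members and lists were chosen with earlier results of these data known. Named genes were called members, the 2 most abundant tested members per class and the 6 uncalled members of lowest p, with up to 5 called genes per pathway list and 4 per marker list. Other names in the text were added after values were seen.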

Additional observations from a re-analysis of the deposited data

How the results depend on the processing

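Of the 81 genes, 9 were called, and DESeq2 1.42.0 called 14 (13 higher, 1 lower, all 9 among them). The Y-linked covariate left 2, and the 6 fits without a library gave 2 to 7. DESeq2 size factors and total count scaling in edgeR kept the same 9. Limma-voom kept 7 of them (not Itga2 or Itga7), a 1 CPM minimum on the mean 8, and no low-count filter all 9. Over all genes, 634 were called, 1135 by DESeq2, 358 with the covariate and 309 to 749 without a library. The 749 were called without double knockout replicate 3. Total count scaling moved calls from 50% to 60.4% higher. Over the 4 pathway lists, 10 were called, 4 with the covariate and 3 to 10 without a library. The median log2 fold change of members, 0.12, was 0.149 with total count scaling, 0.143 with DESeq2, 0.149 without a filter and 0.0975 to 0.173 without a library. The cause was not tested.

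The replicate block called 690 genes and 10 members, 8 of the 9 (not Col28a1) with Col25a1 and Col4a4. Among the other genes named, Frem2 and the neuronal marker Elavl3 lost their call under it. Deviations of same-numbered libraries correlated at -0.081, -0.00368 and -0.00282 over all tested genes. There, wild-type replicate 1 correlated best with double knockout replicate 2 (0.0994), 2 with 3 (0.021) and 3 with 1 (0.105). Above a mean of 1 CPM (16482 genes) the same-numbered values were 0.147, 0.121 and 0.101. Only there did each library correlate best with its own number, a hint from the data that the labels do not settle.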
